A study of Homo sapiens with 60 samples.

Results

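Topotecan added to OL9-119 was examined in C6, a single TDP1-knockout clone of HEK293A cells, by setting 4 libraries treated with both compounds against 4 libraries treated with OL9-119 alone. These 8 libraries were taken by their labels from 60 libraries that cover 3 knockout clones (C6, F7 and G6) and 5 treatments, with 4 biological replicates in each group. The combination was 100 nM topotecan with 5 µM OL9-119, for which the labels name no DMSO. The OL9-119 libraries had 5 µM OL9-119 dissolved in 0.1% DMSO. Both treatments lasted 5 to 5.5 hours in medium with 10% serum, and poly(A) RNA was sequenced. HEK293A is a human embryonic kidney line that carries adenovirus genes. All 8 libraries carry the same CRISPR/Cas9 knockout, made with guides against constitutively used exons of TDP1, and come from 1 clone. They therefore measure neither the effect of the knockout nor the spread between clones. Wild-type libraries were not analysed here.

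Topoisomerase 1, the product of TOP1, nicks 1 DNA strand to release the twist that replication and transcription build up. Topotecan holds the enzyme on the nicked DNA, and TDP1 cuts the resulting bond between the enzyme and the DNA. Trapped enzyme blocks replication forks and RNA polymerase, which hits long genes most, and the breaks that follow can signal to NF-kB, the factor that switches on chemokines and its own inhibitors. OL9-119 was made as an inhibitor of TDP1. The comparison asks what topotecan changes in cells that are also given this compound.

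CPM below are counts rescaled so that libraries can be compared. Totals ran from 4.62 to 11.3 M counts in the combination libraries and from 7.86 to 17.9 M counts in the OL9-119 libraries. The 8 libraries fell into 2 classes by the number of genes detected at a common depth of 4.5 M counts. Combination replicates 1, 2 and 4 held 17457 to 19353 genes and OL9-119 replicates 1 and 4 held 18537 to 19284, while combination replicate 3 held 21380 and OL9-119 replicates 2 and 3 held 21695 and 21985. The serial numbers in the sample titles, whose meaning is not given, fell into the same classes, with the 3 libraries of higher detection next to each other in 1 run of numbers and the other 5 in 2 runs apart from it. Results are therefore also given with a term for this class (a cut-off of 20000 genes), chosen after the data were seen. TDP1 had 26.9, 29.999, 31.3 and 26.2 CPM in the combination libraries, against 28.8, 36.3, 32.5 and 42.3 CPM in the OL9-119 libraries, and its whole-gene count does not test the knockout, since an edited exon can leave the poly(A) count in place. It was not called (log2 change -0.29 ± 0.12, adjusted p = 0.164, edgeR), and neither was TOP1, with 228, 252, 202 and 267 CPM in the combination libraries, against 310.3, 214, 199 and 278 CPM in the OL9-119 libraries (log2 change -0.08 ± 0.12, adjusted p = 0.762, edgeR). Of the 12 markers of HEK293 lines, all were tested and none was called, with a summed level of 1899 to 2192 CPM in the combination and 1833 to 2222 CPM in the OL9-119 libraries. Summed levels of 12 blood markers were 3.97 to 6.02 CPM and 4.76 to 7.51 CPM in the same order, with 3 of the 12 at 0 in all 8 libraries. None of 8 hepatocyte markers passed the filter on low counts.

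Across all genes, 962 of 18985 (5.07%) differed between the combination and OL9-119 alone at an adjusted p under 0.05 (edgeR quasi-likelihood). The p-values measure the spread between samples labelled as biological replicates of single clones. Of these genes, 352 (1.85%) were higher and 610 (3.21%) were lower in the combination, 50 and 79 of them by at least 2-fold. The highest were genes of chemokines and of the NF-kB pathway, and the lowest were mitotic genes and genes of long genomic span. The 4 combination libraries lay wholly above the 4 OL9-119 libraries for 237 of the higher genes, and wholly below them for 459 of the lower genes. Over all genes tested such separation was seen for 2.56% above and 4.01% below.

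The number of genes called differed widely between fits. The fit shared 1 spread over all 60 libraries, and a fit of the 8 libraries alone called 84 genes, 0.554% of those it tested (24 higher, 60 lower), all among the 962. With a term for the detection class, 1005 genes or 6.63% were called in the 8 libraries, of which 410 were higher (2.7%) and 595 lower (3.93%). In all 60 libraries that term gave 1466 genes or 7.72% (544 higher, 922 lower). All 962 genes kept their direction with the term in all 60 libraries, and 951 were again called. Within the libraries of lower detection 804 genes or 3.6% were called (294 higher, 510 lower). Within those of higher detection, where a single combination library stood against 2, the number was 83 or 0.372% (28 higher, 55 lower). Leaving out combination replicate 3 raised the count to 1524.

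Genes of the NF-kB pathway made up 9 of the 14 with the largest increases by the naming rule. The rule takes called genes with a mean of at least 2 log2 CPM and a standard symbol. Of 45 listed subunits, inhibitors and targets, 37 were tested. Of these, 18 were higher (against 1.85% of all genes) and none was lower (3.21%). The median log2 change was 0.63 over the 37 against -0.04 over all genes. With the class term 21 were higher (2.87% of all genes) and none was lower. The counts were 16 within the libraries of lower detection (1.31% of all genes) and 12 within those of higher detection (0.125%), and 11 of the members tested in the 8 libraries alone (0.158%) were higher there.

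TNFAIP3, NFKBIA and CCL20 are shown by the DNA before their start sites, because all 3 rose and each window holds a match to the kappaB site, the sequence that NF-kB dimers bind. TNFAIP3 encodes an enzyme that shuts down NF-kB signalling, NFKBIA encodes the inhibitor that holds NF-kB in the cytoplasm, and CCL20 encodes a chemokine that draws lymphocytes and dendritic cells. The windows are from RefSeq on GRCh38.p14 and run from 250 bases before to 50 bases after the RefSeq start, which can differ from the outer gene ends given below. They cover chr6:137867009-137867308, plus strand, chr14:35404700-35404999, minus strand, and chr2:227813592-227813891, plus strand. Capitals mark matches to the kappaB consensus, whose first base lies at -67, -81 and -79 from the start.
TNFAIP3: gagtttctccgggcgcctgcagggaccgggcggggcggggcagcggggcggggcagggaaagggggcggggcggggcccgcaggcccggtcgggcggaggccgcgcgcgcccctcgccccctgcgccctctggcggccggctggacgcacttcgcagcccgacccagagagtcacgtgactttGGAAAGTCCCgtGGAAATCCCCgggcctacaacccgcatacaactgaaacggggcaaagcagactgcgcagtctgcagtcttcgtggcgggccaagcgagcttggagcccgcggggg
NFKBIA: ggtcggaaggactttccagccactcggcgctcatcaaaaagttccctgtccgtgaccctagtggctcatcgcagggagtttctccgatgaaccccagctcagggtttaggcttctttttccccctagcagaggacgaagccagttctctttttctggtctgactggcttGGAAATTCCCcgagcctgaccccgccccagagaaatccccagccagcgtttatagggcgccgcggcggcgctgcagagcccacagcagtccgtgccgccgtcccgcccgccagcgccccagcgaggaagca
CCL20: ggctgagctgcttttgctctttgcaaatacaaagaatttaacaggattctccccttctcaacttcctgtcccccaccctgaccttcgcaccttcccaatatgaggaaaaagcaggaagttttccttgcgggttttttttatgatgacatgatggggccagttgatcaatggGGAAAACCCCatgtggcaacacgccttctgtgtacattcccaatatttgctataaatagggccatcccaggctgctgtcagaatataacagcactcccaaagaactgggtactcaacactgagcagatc
On either strand such a match occurred in 10.8% of the 27305 promoters in the table, in 14 of 30 tested list members with a promoter there (46.7%) and in 11 of the 15 called higher (73.3%). The window of CXCL8, which rose most by the naming rule, held no match in the same search. It does hold ggaatttcct, which ends in t, while every marked match ends in C. The search depends on its exact pattern, so a missing match does not show that a site is absent. A match describes the letters of these windows only. The list was made of NF-kB subunits, inhibitors and targets, so its higher share is not read as a result of these data.

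Among inhibitors and negative regulators of NF-kB on the list, TNFAIP3 and NFKBIA were called, and those given last in this paragraph were not. BIRC3, which inhibits apoptosis, was called as well. TNFAIP3 (chromosome 6, 137867188 to 137883312, hg38) had 117.7, 112.1, 103.04 and 118.48 CPM in the combination libraries, against 17.5, 21.5, 20.7 and 26.01 CPM in the OL9-119 libraries, a 5.25-fold rise (log2 change 2.39 ± 0.11, adjusted p = 3.15e-24, edgeR). Every combination library lay far above every OL9-119 library, in both detection classes, and the class term left the change at 2.37. NFKBIA (chromosome 14, 35401511 to 35404749) had 140.04, 147.1, 143.3 and 147.7 CPM in the combination libraries, against 48.95, 55.3, 59.02 and 47.8 CPM in the OL9-119 libraries (log2 change 1.45 ± 0.11, adjusted p = 2.61e-15, edgeR). BIRC3, an apoptosis inhibitor that also acts in TNF receptor signalling, had 23.9, 27.8, 20.4 and 37.1 CPM in the combination libraries, against 10.8, 8.75, 6.37 and 11.4 CPM in the OL9-119 libraries (log2 change 1.57 ± 0.21, adjusted p = 2.57e-07, edgeR). In all 3 genes every combination library exceeded every OL9-119 library. Among those not called, NFKBIZ had a log2 change of 0.50, NFKBIE 0.43, CYLD 0.35, NFKBIB 0.30, TNIP2 0.14, TNIP1 0.05 and NFKBID -0.26 (adjusted p = 0.0743, 0.253, 0.113, 0.466, 0.683, 0.886 and 0.734, edgeR). BCL3 was not called either (log2 change -0.09, adjusted p = 0.891, edgeR).

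The 3 largest increases by the naming rule were in genes of secreted proteins. CXCL8 (chromosome 4, 73740506 to 73743716), which encodes the neutrophil chemokine interleukin-8, had 133.9, 115.6, 85.7 and 143.46 CPM in the combination libraries, against 16.9, 11.1, 8.53 and 22.1 CPM in the OL9-119 libraries, an 8.27-fold rise (log2 change 3.05 ± 0.25, adjusted p = 4.2e-14, edgeR). Both groups were lowest in the libraries with more genes detected, and the groups did not overlap. CCL20 (chromosome 2, 227805739 to 227817564) had 37.4, 31.8, 25.4 and 37.1 CPM in the combination libraries, against 5.16, 4.04, 3.49 and 5.4996 CPM in the OL9-119 libraries (log2 change 2.87 ± 0.27, adjusted p = 1.6e-11, edgeR), and PTX3, a secreted pattern-recognition protein, had 40.6, 26.5, 34.7 and 36.05 CPM in the combination libraries, against 4.498, 7.24, 7.47 and 5.76 CPM in the OL9-119 libraries (log2 change 2.45 ± 0.21, adjusted p = 5.98e-13, edgeR). Every combination library exceeded every OL9-119 library for both. At lower levels CXCL1, CXCL2 and CXCL3, whose sequences are so alike that the split of reads between them is uncertain, had log2 changes of 2.41 ± 0.40, 2.19 ± 0.36 and 2.77 ± 0.58 (adjusted p = 2.41e-05, 2.2e-05 and 0.000987, edgeR). TNF, the cytokine itself, had 5.78, 7.72, 4.51 and 3.03 CPM in the combination libraries, against 2.25, 0.846, 1.44 and 0.698 CPM in the OL9-119 libraries (log2 change 2.00 ± 0.40, adjusted p = 0.000624, edgeR), which are low counts with no overlap. CCL2, a monocyte chemokine, changed by 1.07 ± 0.23 (adjusted p = 0.00122, edgeR).

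Membrane proteins and other early targets followed. IER3, a stress-induced survival gene, averaged 220.2 ± 21.9 CPM in the combination libraries and 87.4 ± 13.3 CPM in the OL9-119 libraries (SD, n = 4 each; log2 change 1.33 ± 0.11, adjusted p = 4.2e-14, edgeR). CD83, a surface protein of the immunoglobulin family, had 62.05, 62.2, 57.4 and 64.05 CPM in the combination libraries, against 23.2, 25.1, 24.7 and 24.4 CPM in the OL9-119 libraries (log2 change 1.33 ± 0.11, adjusted p = 3.23e-14, edgeR). TNFRSF9, a costimulatory receptor of the TNF receptor family, had 45.5, 32.2, 33.9 and 34.5 CPM in the combination libraries, against 20.8, 10.5, 12.1 and 13.5 CPM in the OL9-119 libraries (log2 change 1.38 ± 0.18, adjusted p = 2.04e-07, edgeR). These 3 genes did not overlap between the groups in any library. Among the subunits, RELB rose by 1.16 ± 0.23, NFKB2 by 0.63 ± 0.12 and NFKB1 by 0.29 ± 0.09 (adjusted p = 0.000377, 0.000347 and 0.0485, edgeR), and the call of NFKB1 was lost with the class term (adjusted p = 0.0564) and without combination replicate 2 (0.211). RELA, the main activating subunit, averaged 90.4 ± 17.5 CPM in the combination libraries and 89.98 ± 7.90 CPM in the OL9-119 libraries (SD, n = 4 each) and was not called (log2 change 0.01 ± 0.11, adjusted p = 0.978, edgeR). REL was not called either (log2 change 0.48 ± 0.20, adjusted p = 0.177, edgeR).

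**Figure D1:**
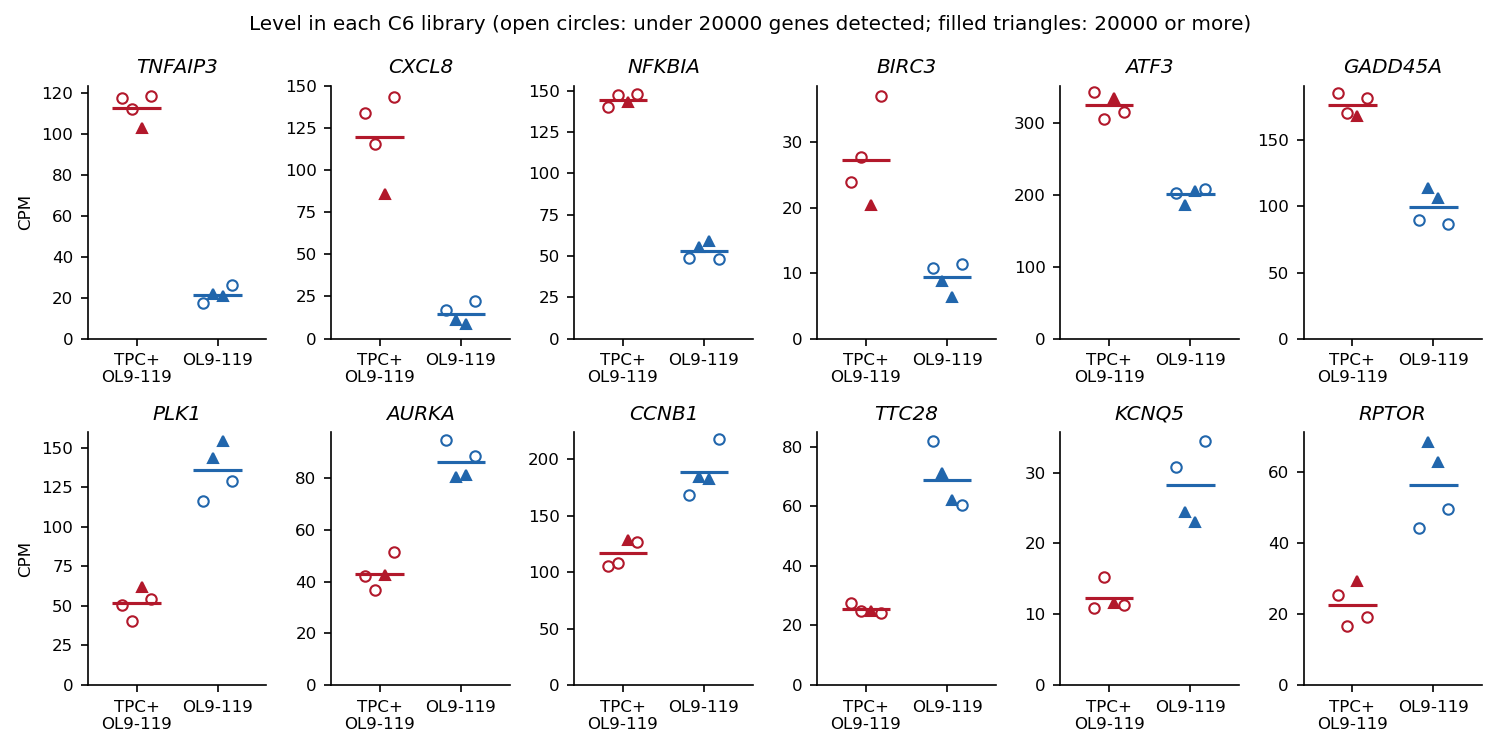
Levels in CPM of 12 genes in each of the 8 C6 libraries, combination (TPC stands for topotecan) left and OL9-119 right in each panel, with 1 mark per library and the group mean as a line. Open circles are libraries with under 20000 genes detected and filled triangles the others. The groups did not overlap for any of the 12 genes, and TNFAIP3 ran from 103.04 to 118.48 CPM in the combination libraries, against 17.5 to 26.01 CPM in the OL9-119 libraries.

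Of the 14 genes with the largest increases by the naming rule, the others outside the NF-kB list were TCIM, PLAU, FILIP1L, NEDD9 and INHBA. PLAU, the urokinase protease, had 22.8, 20.96, 19.03 and 22.7 CPM in the combination libraries, against 4.63, 10.3, 10.2 and 5.76 CPM in the OL9-119 libraries (log2 change 1.43 ± 0.17, adjusted p = 2.09e-08, edgeR). NEDD9, a scaffold protein of focal adhesions, had 23.1, 23.8, 24.6 and 21.8 CPM in the combination libraries, against 9.53, 9.03, 9.91 and 10.04 CPM in the OL9-119 libraries (log2 change 1.28 ± 0.14, adjusted p = 3.23e-09, edgeR). INHBA, which encodes the activin A subunit, had 15.3, 11.5, 10.4 and 15.3 CPM in the combination libraries, against 5.95, 3.76, 3.49 and 9.08 CPM in the OL9-119 libraries (log2 change 1.25 ± 0.24, adjusted p = 0.000359, edgeR). INHBA replicate 4 of OL9-119 came nearest to the combination, and none of the 5 genes overlapped. TCIM, a regulator of transcription and immune signalling, changed by 1.81 ± 0.23 and FILIP1L by 1.30 ± 0.27 (adjusted p = 5.23e-08 and 0.00106, edgeR). All 14 were called with the class term and 12 in the 8 libraries alone.

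Immediate early genes are those that cells switch on within minutes to hours of a stimulus. Of 40 tested, 16 were higher (against 1.85% of all genes) and 1 was lower (3.21%), with a median log2 change of 0.31. With the class term 17 were higher (2.87%) and 1 was lower (4.86%). In the 8 libraries alone 1 was higher (0.158%). ATF3, a stress-induced transcription factor, had 344, 306, 334 and 315 CPM in the combination libraries, against 203, 186, 205 and 208 CPM in the OL9-119 libraries (log2 change 0.70 ± 0.06, adjusted p = 1.71e-12, edgeR). PPP1R15A, which restarts translation after stress by directing a phosphatase to eIF2α, had 253, 306, 345 and 343 CPM in the combination libraries, against 161, 229, 219.6 and 208 CPM in the OL9-119 libraries (log2 change 0.61 ± 0.09, adjusted p = 1.87e-06, edgeR). DUSP1, a phosphatase that turns off MAP kinases, had 129.7, 123.97, 145.4 and 129.98 CPM in the combination libraries, against 84.3, 93.02, 104.48 and 89.4 CPM in the OL9-119 libraries (log2 change 0.51 ± 0.10, adjusted p = 0.000257, edgeR). Each of these 3 genes was higher in every combination library than in any OL9-119 library. The AP-1 subunits JUNB, FOSL1 and JUN rose by 1.00 ± 0.23, 1.03 ± 0.20 and 0.44 ± 0.10 (adjusted p = 0.00365, 0.000364 and 0.00358, edgeR), and KLF6 by 0.45 ± 0.08 (adjusted p = 8.47e-05, edgeR). The groups of JUN overlapped. EGR1 was not called (log2 change 0.33 ± 0.17, adjusted p = 0.301, edgeR), and FOS was called with the class term only (log2 change 0.57 ± 0.22, adjusted p = 0.123, edgeR, and 0.0185 with the term). The 1 lower member was CCN2, a matrix-associated growth factor, with 57.98, 74.997, 89.3 and 95.5 CPM in the combination libraries, against 110.5, 113.8, 114.2 and 115.3 CPM in the OL9-119 libraries (log2 change -0.51 ± 0.14, adjusted p = 0.0216, edgeR). Its groups did not overlap, and its adjusted p was 0.144 without combination replicate 1.

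The p53 list gave 4 higher genes of 33 tested (against 1.85% of all genes) and none lower, with a median log2 change of 0.25. With the class term 10 were higher (2.87%), and in the 8 libraries alone 1 was (0.158%). GADD45A, which slows the cell cycle after DNA damage, had 186, 171, 168 and 182 CPM in the combination libraries, against 89.97, 113.99, 106.53 and 87.03 CPM in the OL9-119 libraries (log2 change 0.83 ± 0.08, adjusted p = 1.6e-11, edgeR), with no overlap. PMAIP1, which encodes the death-promoting protein NOXA, had 807, 709, 657 and 768 CPM in the combination libraries, against 585, 442, 455 and 595 CPM in the OL9-119 libraries (log2 change 0.50 ± 0.13, adjusted p = 0.00979, edgeR). FAS, the death receptor, averaged 68.2 ± 14.6 CPM in the combination libraries and 45.01 ± 8.87 CPM in the OL9-119 libraries (SD, n = 4 each; log2 change 0.59 ± 0.15, adjusted p = 0.00844, edgeR), and its groups overlapped, since combination replicate 3 lay below OL9-119 replicate 4. RPS27L, the fourth, changed by 0.30 ± 0.09 (adjusted p = 0.0416, edgeR). Without OL9-119 replicate 2 the calls of PMAIP1 and RPS27L were lost (adjusted p = 0.0612 and 0.189, edgeR), and without combination replicate 2 that of FAS (0.0589). CDKN1A and MDM2, the most used readouts of p53, were not called. CDKN1A averaged 239 ± 25.4 CPM in the combination libraries and 201 ± 30.9 CPM in the OL9-119 libraries (SD, n = 4 each; log2 change 0.25 ± 0.09, adjusted p = 0.124, edgeR, and 0.00341 with the class term). MDM2 had 189, 249, 138.7 and 211 CPM in the combination libraries, against 245, 174, 158 and 208 CPM in the OL9-119 libraries (log2 change 0.01 ± 0.14, adjusted p = 0.992, edgeR), with overlapping groups.

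Most genes of G2 and mitosis fell. Of 45 tested, 28 were lower (against 3.21% of all genes) and none was higher (1.85%). The median log2 change was -0.51 over the 45 against -0.04 over all genes. In bulk RNA, fewer cells in mitosis and less RNA per cell cannot be told apart. With the class term 34 were lower (4.86% of all genes). The number was 28 within the libraries of lower detection (2.28%), 6 within those of higher detection (0.246%) and 10 in the 8 libraries alone (0.396%). PLK1, CENPA and PIF1 are shown by their start-site windows, since all 3 fell and each holds 1 match to the cell cycle homology region, the element through which mitotic genes are repressed in resting cells. The windows, again from RefSeq on GRCh38.p14, cover chr16:23678639-23678938, plus strand, chr2:26785806-26786105, plus strand, and chr15:64825598-64825897, minus strand. Capitals mark the match, which begins at -29, -18 and -20 from the start.
PLK1: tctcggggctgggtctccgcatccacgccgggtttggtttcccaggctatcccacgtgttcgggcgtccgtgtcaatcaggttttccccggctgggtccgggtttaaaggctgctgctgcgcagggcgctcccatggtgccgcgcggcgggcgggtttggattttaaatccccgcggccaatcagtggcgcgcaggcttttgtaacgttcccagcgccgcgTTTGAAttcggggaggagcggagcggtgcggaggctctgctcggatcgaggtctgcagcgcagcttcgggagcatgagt
CENPA: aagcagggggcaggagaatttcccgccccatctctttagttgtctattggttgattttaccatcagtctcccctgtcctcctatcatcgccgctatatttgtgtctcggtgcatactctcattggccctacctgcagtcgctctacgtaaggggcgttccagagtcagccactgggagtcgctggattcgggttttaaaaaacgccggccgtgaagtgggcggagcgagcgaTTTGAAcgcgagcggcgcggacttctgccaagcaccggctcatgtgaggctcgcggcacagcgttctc
PIF1: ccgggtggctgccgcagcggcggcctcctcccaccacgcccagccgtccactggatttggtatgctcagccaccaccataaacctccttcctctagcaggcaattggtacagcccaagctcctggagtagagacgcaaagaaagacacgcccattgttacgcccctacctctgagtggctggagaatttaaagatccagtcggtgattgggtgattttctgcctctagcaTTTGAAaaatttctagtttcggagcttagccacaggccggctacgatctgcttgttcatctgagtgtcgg
The search used TTTGAA and TTCGAA on both strands. It found them in 16.6% of all 27305 promoters, in 26 of 38 tested list members with a promoter there (68.4%) and in 16 of the 23 called lower (69.6%). The share was thus about the same for the whole list as for the members that fell. CCNB1 and KIF20A also fell, and their windows held no match. CCAAT, searched on both strands, was in 35.7% of all promoters, in 29 of the 38 (76.3%) and in 18 of the 23 (78.3%).

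The kinase genes PLK1 and AURKA were among the lowest of this list. The checkpoint kinase gene BUB1, given below, was also lower, as was its relative BUB1B (log2 change -0.56 ± 0.09, adjusted p = 1.13e-05, edgeR). TTK, AURKB and NEK2 were not called. PLK1 (chromosome 16, 23677656 to 23690367), the kinase that drives entry into and passage through mitosis, had 50.3, 40.6, 61.8 and 54.2 CPM in the combination libraries, against 116.6, 143.4, 154 and 129.2 CPM in the OL9-119 libraries, a 2.61-fold fall (log2 change -1.38 ± 0.13, adjusted p = 1.59e-11, edgeR). AURKA (chromosome 20, 56369389 to 56392337), which matures the spindle poles, had 42.04, 36.8, 42.4 and 51.4 CPM in the combination libraries, against 94.9, 80.7, 81.3 and 88.8 CPM in the OL9-119 libraries (log2 change -0.99 ± 0.08, adjusted p = 3.16e-14, edgeR). In both, every combination library lay under every OL9-119 library. TTK, AURKB and NEK2 had log2 changes of -0.29, -0.26 and -0.08 (adjusted p = 0.296, 0.14 and 0.752, edgeR). The cyclins differed among themselves. CCNB1, the cyclin that activates CDK1 for mitosis, had 105.7, 107.9, 128.6 and 126.4 CPM in the combination libraries, against 168, 185, 183 and 218 CPM in the OL9-119 libraries (log2 change -0.68 ± 0.07, adjusted p = 1.16e-10, edgeR), and CCNF changed by -0.93 ± 0.15 (adjusted p = 8.59e-06, edgeR). CCNB2 was called with the class term only (log2 change -0.27 ± 0.09, adjusted p = 0.0552, edgeR, and 0.0222 with the term), and CDK1 itself averaged 299.9 ± 26.6 CPM in the combination libraries and 299 ± 65.3 CPM in the OL9-119 libraries (SD, n = 4 each; log2 change 0.00 ± 0.14, adjusted p = 0.997, edgeR).

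Genes of the spindle, the kinetochore and the ubiquitin ligase of mitosis were called in part. KIF20A, a kinesin needed for cell division, had 39.5, 38.4, 44.97 and 58.2 CPM in the combination libraries, against 84.4, 88.4, 83.1 and 74.8 CPM in the OL9-119 libraries (log2 change -0.86 ± 0.09, adjusted p = 1.59e-10, edgeR). CENPA, the histone that marks centromeres, had 14.2, 12.4, 12.3 and 15.7 CPM in the combination libraries, against 26.99, 23.4, 25.6 and 23.1 CPM in the OL9-119 libraries (log2 change -0.86 ± 0.12, adjusted p = 8.97e-07, edgeR). CDC20, which activates the ligase that ends metaphase, had 65.8, 59.8, 77.9 and 72.6 CPM in the combination libraries, against 113.52, 123.6, 134.6 and 111.48 CPM in the OL9-119 libraries (log2 change -0.80 ± 0.13, adjusted p = 1.18e-05, edgeR). In none of the 3 genes did the groups overlap. UBE2C, a partner of the same ligase, changed by -0.84 ± 0.12, TPX2 by -0.47 ± 0.10 and BUB1 by -0.65 ± 0.12 (adjusted p = 7.77e-07, 0.000749 and 0.000274, edgeR). Not called were the kinetochore and checkpoint genes MAD2L1 (log2 change 0.17, adjusted p = 0.424, edgeR), NUF2 (0.12, 0.757), BUB3 (-0.01, 0.953) and NDC80 (-0.18, 0.519), and the kinesins KIF11 (-0.25, 0.38) and KIF18A (-0.17, 0.685). PSRC1, a spindle protein, had 10.8, 9.48, 11.2 and 15.6 CPM in the combination libraries, against 20.6, 30.6, 28.5 and 27.7 CPM in the OL9-119 libraries (log2 change -1.17 ± 0.14, adjusted p = 2.23e-08, edgeR). The DNA helicase gene PIF1 fell most of the list but at low counts, with 2.19, 0.882, 2.66 and 1.25 CPM in the combination libraries, against 4.76, 5.83, 7.09 and 5.4996 CPM in the OL9-119 libraries (log2 change -1.67 ± 0.34, adjusted p = 0.000813, edgeR). FOXM1, a factor that activates these genes, was lower as well (log2 change -0.31 ± 0.07, adjusted p = 0.00596, edgeR). MKI67, the proliferation marker, changed by -0.42 ± 0.09 (adjusted p = 0.000819, edgeR), and TOP2A was called with the class term only (log2 change -0.35 ± 0.14, adjusted p = 0.153, edgeR, and 0.0011 with the term).

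Genes of G1/S and DNA replication moved less. Of 50 tested, 6 were higher (against 1.85% of all genes) and 1 was lower (3.21%), with a median log2 change of 0.13. The class term gave 13 higher (2.87%) and 2 lower (4.86%). Within the libraries of lower detection 2 were higher (1.31%) and 2 were lower (2.28%). In the 8 libraries alone none was called (0.554% of all genes). CDC6, which loads the replicative helicase, had 239.6, 213, 211 and 233 CPM in the combination libraries, against 166, 151, 149.99 and 182 CPM in the OL9-119 libraries (log2 change 0.47 ± 0.07, adjusted p = 1.81e-06, edgeR). PCNA, the sliding clamp of DNA polymerases, had 376, 341, 330.4 and 366 CPM in the combination libraries, against 279, 234, 246 and 313 CPM in the OL9-119 libraries (log2 change 0.40 ± 0.09, adjusted p = 0.00142, edgeR). Every combination library exceeded every OL9-119 library in both. The other 4 higher members were MCM4, GMNN, GINS3 and TIPIN. The lower member was POLA1, the catalytic subunit of DNA polymerase alpha, whose gene spans 303 kb (log2 change -0.27 ± 0.07, adjusted p = 0.0168, edgeR, and 0.0896 without OL9-119 replicate 4).

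Calls among repair genes were near the 5.07% of all genes, and nothing particular to them is read from the counts. Of 31 topoisomerases and genes that act on TOP1 lesions, FEN1, a flap nuclease, was the only one called, with 146.6, 161, 164 and 161 CPM in the combination libraries, against 112.1, 137.6, 141.6 and 114.7 CPM in the OL9-119 libraries (log2 change 0.32 ± 0.07, adjusted p = 0.00365, edgeR). PARP1 (log2 change -0.04 ± 0.06, adjusted p = 0.791, edgeR), XRCC1 (log2 change -0.20 ± 0.17, adjusted p = 0.556, edgeR) and TDP2 (log2 change 0.32 ± 0.16, adjusted p = 0.258, edgeR) were not called, and the list median was 0.00. Among 30 genes of homologous recombination and the Fanconi anaemia pathway, EXO1, a resection nuclease, was higher and FANCC was lower (log2 change 0.50 ± 0.11, adjusted p = 0.00126, edgeR, and log2 change -0.40 ± 0.09, adjusted p = 0.00141, edgeR). Of 27 genes of the damage checkpoint and end joining, PRKDC, the DNA-dependent protein kinase, was the only one called, with 677, 688, 574 and 682 CPM in the combination libraries, against 957, 742, 703 and 817 CPM in the OL9-119 libraries (log2 change -0.30 ± 0.09, adjusted p = 0.0473, edgeR, and 0.211 without OL9-119 replicate 1).

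**Figure D2:**
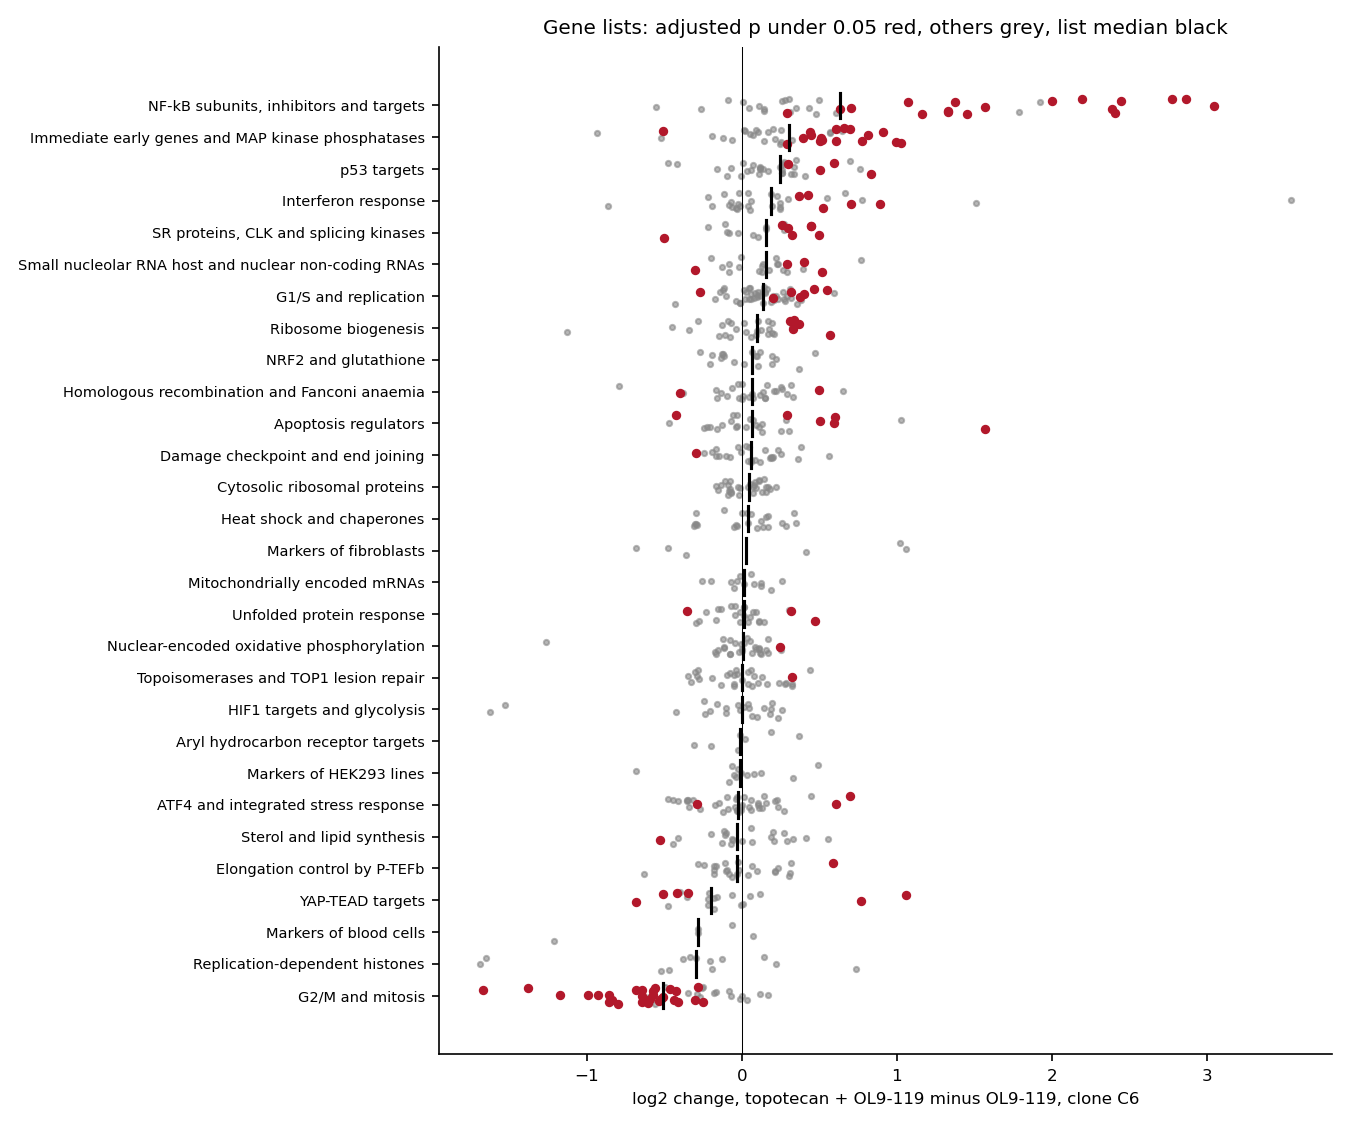
Log2 change of every tested member of 29 gene lists, combination minus OL9-119 in C6, ordered by the list median (black bar). Members past an adjusted p of 0.05 are red and others grey. The NF-kB list had the highest median of the lists drawn, 0.63, and the G2/M list the lowest, -0.51.

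The integrated stress response, through which ATF4 raises amino acid synthesis and transport genes, was examined through 42 tested members. Of these, 2 were higher and 1 was lower, against 5.07% of all genes called, with a median log2 change of -0.02. The 2 higher members were ATF3 and PPP1R15A, described above, and the lower one was SLC7A1, a transporter of basic amino acids, with 234, 252, 237 and 229 CPM in the combination libraries, against 317, 286, 291 and 268 CPM in the OL9-119 libraries (log2 change -0.29 ± 0.08, adjusted p = 0.0128, edgeR, and 0.0699 without OL9-119 replicate 1). DDIT3, the stress factor CHOP, had 59.7, 69.7, 70.6 and 71.6 CPM in the combination libraries, against 51.2, 74.8, 68.99 and 65.2 CPM in the OL9-119 libraries (log2 change 0.06 ± 0.12, adjusted p = 0.823, edgeR), and the groups overlapped. CHAC1, which breaks down glutathione, had 40.5, 33.1, 58.4 and 31.03 CPM in the combination libraries, against 36.5, 56.8, 64.5 and 45.9 CPM in the OL9-119 libraries (log2 change -0.32 ± 0.25, adjusted p = 0.506, edgeR), again with overlap. Both were already high in the OL9-119 libraries relative to the DMSO libraries of C6, where DDIT3 averaged 17.3 CPM and CHAC1 4.40 CPM (OL9-119 minus DMSO called 3.25% of all genes, 1.32% higher and 1.93% lower). The log2 changes were 1.89 ± 0.13 and 3.51 ± 0.30 (adjusted p = 3.19e-17 and 4.1e-13, edgeR).

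Smaller shifts were found in RNA processing and cell death genes. Of 18 SR proteins and splicing kinases 6 were higher (against 1.85% of all genes) and 1 was lower (3.21%), with a median of 0.16. The same shares of all genes stand beside the apoptosis and elongation counts below. In the 8 libraries alone no SR protein or splicing kinase was called (0.554% of all genes). SRSF5, SRSF7, SRSF6 and SRSF2, which are splicing factors, rose by 0.32 ± 0.07, 0.26 ± 0.06, 0.44 ± 0.10 and 0.30 ± 0.08, and the kinase genes CLK4 and CLK1 by 0.50 ± 0.11 and 0.44 ± 0.12 (adjusted p between 0.000939 and 0.0179, edgeR). The lower member was SRPK2, with a span of 289 kb (log2 change -0.50 ± 0.09, adjusted p = 8.92e-05, edgeR). SRSF2 and CLK1 each lost the call when 1 library was left out (adjusted p up to 0.112 without OL9-119 replicate 1 and 0.133 without OL9-119 replicate 3). Of 28 apoptosis regulators 5 were higher, among them MCL1, PMAIP1, BIRC3 and FAS, and 1 was lower. The lower one was BIRC5, the mitotic protein survivin (log2 change -0.43 ± 0.07, adjusted p = 3.01e-05, edgeR). HEXIM1, an inhibitor of the elongation factor P-TEFb, was the 1 called gene of 25 on elongation control, with 165, 158, 180.1 and 164 CPM in the combination libraries, against 94.7, 122.9, 120.8 and 105.7 CPM in the OL9-119 libraries (log2 change 0.59 ± 0.09, adjusted p = 1.41e-05, edgeR), which did not overlap.

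Among 33 interferon response genes 5 were higher (against 1.85% of all genes) and none was lower (3.21%), with a median of 0.18. The same shares of all genes stand beside the other list counts below. A fit of the 8 libraries alone called no member of the interferon, ribosome biogenesis and small nucleolar RNA host lists (0.554% of all genes). IRF1, a transcription factor shared with the NF-kB list, had 32.04, 30.7, 38.9 and 31.6 CPM in the combination libraries, against 18.4, 22.5, 22.6 and 18.2 CPM in the OL9-119 libraries (log2 change 0.71 ± 0.12, adjusted p = 3.33e-05, edgeR). HLA-E, a non-classical MHC protein, rose by 0.37 ± 0.09 and IFIT3 by 0.89 ± 0.21 (adjusted p = 0.00396 and 0.00543, edgeR), though IFIT3 reached 0.0601 without combination replicate 4. IFIT5 and GBP2 were the other two. Ribosome biogenesis gave 5 higher of 30 (NOLC1, NOP56, MYC, GNL3 and NIP7), led by NOLC1 (log2 change 0.33 ± 0.06, adjusted p = 0.000369, edgeR). MYC was included (log2 change 0.57 ± 0.16, adjusted p = 0.0272, edgeR), but its groups overlapped and its adjusted p was 0.183 without combination replicate 4. Of 22 hosts of small nucleolar RNAs and nuclear non-coding RNAs, the hosts SNHG1, SNHG12 and GAS5 were the 3 higher. The 1 lower was the nuclear non-coding RNA NEAT1. YAP and TEAD genes gave 2 higher (NUAK2 and F3) and 4 lower of 20. The lower ones were CCN2, CRIM1 (195 kb), PTPN14 (204 kb) and TEAD1 (269.9 kb), and TEAD1 had 78.8, 89.997, 75.4 and 85.2 CPM in the combination libraries, against 151, 113.52, 115.9 and 147.9 CPM in the OL9-119 libraries (log2 change -0.68 ± 0.11, adjusted p = 9.33e-06, edgeR).

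In the other lists, no count is read as particular to a list, with 5.07% of all genes called. None was called among 23 heat shock and chaperone genes, 13 mitochondrially encoded mRNAs, 30 cytosolic ribosomal protein genes, 13 replication-dependent histone genes, 19 NRF2 and glutathione genes, 22 HIF1 targets and glycolysis genes and 7 aryl hydrocarbon receptor genes. The histone genes were poorly measured in this poly(A) RNA, with sums of 37.5 to 53.3 CPM in the combination and 49.1 to 52.8 CPM in the OL9-119 libraries. Standard errors of their log2 changes reached 1.06, so the missing calls do not show that they were unchanged. Of 30 nuclear-encoded genes of oxidative phosphorylation 1 was higher (UQCRC2), of 22 sterol and lipid synthesis genes 1 was lower (ACACA, 322 kb), and of 25 genes of the unfolded protein response 2 were higher (XBP1 and DNAJB9) and 1 was lower (ATF6, 198 kb). Fibroblast markers summed to 23.4 to 36.6 CPM in the combination and 27.4 to 38.7 CPM in the OL9-119 libraries, and none of the 6 tested was called.

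Long genes made up much of what fell. Of 1176 protein-coding genes that span over 200 kb from start to end, 316 were lower (26.9%) and 1 was higher, with a median log2 change of -0.32 against -0.04 over all genes. Over 500 kb, 81 of 212 were lower (38.2%) and none was higher, with a median of -0.54. Of 2857 genes under 10 kb, 22 were lower and 108 were higher, with a median of -0.04. With the class term 423 of the 1176 were lower and the median over 200 kb was -0.34, while the median under 10 kb turned to 0.04. Of 1252 such genes tested, 254 were lower within the libraries of lower detection (median -0.35) and 42 within those of higher detection (median -0.30). In the 8 libraries alone 44 of 1070 were lower (median -0.31), and 313 with the class term (median -0.35).

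Of the 14 genes with the largest decreases by the naming rule, 11 span over 200 kb. PIF1, given above at low counts, fell more (log2 change -1.67) but is not among the 14. TTC28 (chromosome 22, 27978014 to 28679865), a protein of tetratricopeptide repeats, spans 702 kb and had 27.7, 24.9, 24.96 and 24.03 CPM in the combination libraries, against 81.9, 71.2, 61.96 and 60.4 CPM in the OL9-119 libraries, a 2.71-fold fall (log2 change -1.44 ± 0.14, adjusted p = 1.6e-11, edgeR). RPTOR (chromosome 17, 80544819 to 80966371), the subunit that gives mTOR complex 1 its substrates, spans 422 kb and had 25.2, 16.5, 29.1 and 19.02 CPM in the combination libraries, against 44.1, 68.4, 62.7 and 49.5 CPM in the OL9-119 libraries (log2 change -1.31 ± 0.17, adjusted p = 1.07e-07, edgeR). KCNQ5 (chromosome 6, 72621792 to 73198851), a potassium channel, spans 577 kb and had 10.9, 15.2, 11.6 and 11.3 CPM in the combination libraries, against 30.8, 24.5, 22.98 and 34.5 CPM in the OL9-119 libraries (log2 change -1.21 ± 0.17, adjusted p = 7.3e-07, edgeR). The groups did not overlap in any of these, and each stayed called with every library left out in turn. The adhesion receptor gene ADGRL3 changed by -1.35 ± 0.29, NCKAP5 by -1.34 ± 0.33, SHANK2, a synaptic scaffold, by -1.25 ± 0.22 and SCFD2 by -1.26 ± 0.20 (adjusted p = 0.00124, 0.00719, 7.63e-05 and 6.91e-06, edgeR). ADARB2, FMN1, CACNA2D3 and KIF26B completed the long ones, and KIF26B, at 5.16, 0.441, 3.36 and 1.99 CPM in the combination libraries, against 6.35, 8.09, 7.42 and 6.37 CPM in the OL9-119 libraries (log2 change -1.32 ± 0.35, adjusted p = 0.0143, edgeR), lost its call without combination replicate 2 (adjusted p = 0.0865, edgeR). The short ones among the 14 were PLK1 and PSRC1, and ZC3H12B spans 141.2 kb. All 14 were called with the class term and 7 in the 8 libraries alone. Strand settings of the counting are not given, so reads of genes that lie inside or antisense to these long genes cannot be told apart.

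Over the 14685 protein-coding genes tested, span and log2 change had a rank correlation of -0.11. It was -0.24 with the class term, -0.15 in the 8 libraries alone, -0.32 in these with the class term, and 0.0077 without combination replicate 3. It was -0.21 among the 9143 with a mean of at least 4 log2 CPM. These values describe genes, which are not independent. The value differed between libraries: against the mean of the OL9-119 libraries it was -0.09, 0.04, -0.46 and -0.01 in combination replicates 1 to 4 (SD 0.22, n = 4). Only replicate 3, of the higher detection class, was far below 0. Against OL9-119 libraries of its own class it was -0.30, -0.12, -0.18 and -0.22, so all 4 lay on the same side. Between the 2 classes within OL9-119 alone, the rank correlation of the difference (lower minus higher detection) with span was 0.35. DMSO minus untreated, a comparison with no called gene by edgeR (8.13% of genes at an unadjusted p under 0.05), had a median of 0.03 for genes over 200 kb and a rank correlation with span of 0.23. The median of genes over 200 kb in single libraries was -0.30, -0.30, -0.39 and -0.25 in combination replicates 1 to 4 against all OL9-119 libraries.

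**Figure D3:**
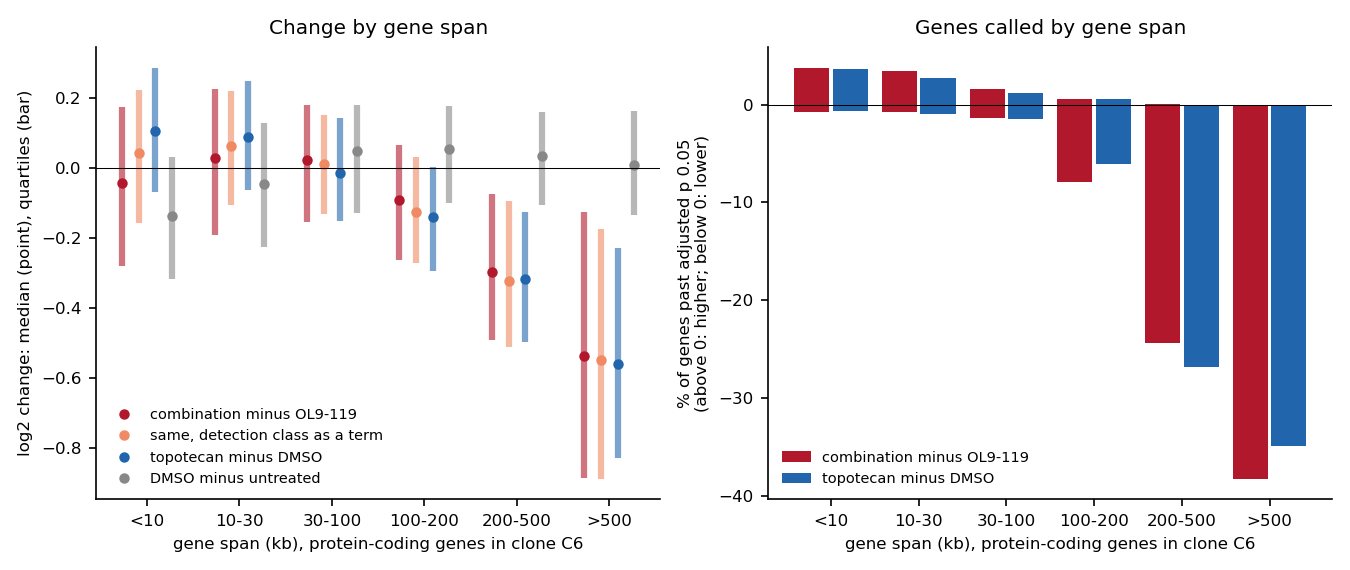
Left, median log2 change (points) and quartiles (bars) of protein-coding genes by genomic span in kb, for the combination minus OL9-119 without and with the detection class as a term, topotecan minus DMSO, and DMSO minus untreated, all in C6. Right, percentage of genes called higher (above 0) or lower (below 0) for the combination minus OL9-119 and for topotecan minus DMSO. Genes over 500 kb had medians of -0.54, -0.55, -0.56 and 0.01 in the order of the legend.

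The same cells given topotecan without OL9-119 allow the effect to be set beside that of topotecan alone (4 libraries with 100 nM topotecan in 0.1% DMSO against 4 with 0.1% DMSO), and the 2 comparisons share no library. In each of these other two groups 2 of 4 libraries were of lower detection. Topotecan alone gave 894 called genes (4.71%), 300 higher (1.58%) and 594 lower (3.13%). Of the 962 genes called for the combination minus OL9-119, 875 had the same direction there, and 415 were called in both with the same direction, which is 43.1% of the 962 and 46.4% of the 894. With and without OL9-119, in that order, 18 and 19 members of the NF-kB list and 16 and 19 of the immediate early list were higher, and 28 and 36 of the G2/M list were lower. Genes over 200 kb had 332 lower and none higher for topotecan alone, with a median of -0.34.

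The difference between the 2 effects was tested directly, and 1 gene passed (0.00527% of genes). At an unadjusted p under 0.05 there were 2133 (11.2%), and DESeq2 called 10. The gene was ATF3, which had 344, 306, 334 and 315 CPM in the combination libraries, against 203, 186, 205 and 208 CPM in the OL9-119 libraries, while it had 314, 299, 290.1 and 301 CPM with topotecan alone, against 110.1, 115.1, 119.8 and 116.6 CPM in DMSO. Its rise was 0.70 ± 0.06 beside OL9-119 and 1.38 ± 0.06 without it, a difference of -0.69 ± 0.09 (adjusted p = 3.85e-06, edgeR). ATF3 thus averaged 325 CPM with the combination and 301 CPM with topotecan alone, while it averaged 201 CPM with OL9-119 and 115.4 CPM in DMSO. The call held with each combination and OL9-119 library left out in turn. Single libraries of topotecan alone and of DMSO were not left out. The call also held with the class term and within the libraries of lower detection (adjusted p = 0.00151, edgeR). It did not pass in a fit of these 16 libraries alone (adjusted p = 0.122, edgeR) or within those of higher detection (adjusted p = 0.986, edgeR).

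For the 28 genes with the largest changes by the naming rule, no difference between the 2 effects was called. In each direction 4 of 14 had an unadjusted p under 0.05, against 11.2% of all genes (edgeR). The 28 were chosen on the combination minus OL9-119, which is part of the difference, so nothing is read from this count. CXCL8 changed by 3.05 ± 0.25 beside OL9-119 and 3.43 ± 0.26 without it, a difference of -0.38 ± 0.35 (adjusted p = 0.638, edgeR). CCL20 changed by 2.87 ± 0.27 and 2.05 ± 0.28, a difference of 0.82 ± 0.38 (adjusted p = 0.433, edgeR). PLK1 changed by -1.38 ± 0.13 and -1.37 ± 0.13, which differ by -0.02 ± 0.18 (adjusted p = 0.979, edgeR). Standard errors of the difference were 0.15 to 0.50 over the 28 genes, so a missing call does not show that the 2 effects were alike.

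Medians of the ATF4 list differed between the 2 effects. With topotecan alone 9 of 42 were higher (1.58% of all genes) and none was lower, at a median of 0.27. Beside OL9-119 the median was -0.02. The median of the differences was -0.31, and the only member past the threshold for the difference was ATF3. Medians of the differences were 0.27 for the G2/M list and 0.23 for the mitochondrially encoded mRNAs, with no member of either past the threshold. A shifted median was thus not particular to the ATF4 list. DDIT3 changed by 0.06 ± 0.12 beside OL9-119 and by 0.65 ± 0.13 with topotecan alone, and CHAC1 by -0.32 ± 0.25 and 1.20 ± 0.31. Neither difference passed (adjusted p = 0.366 and 0.269, edgeR).

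**Figure D4:**
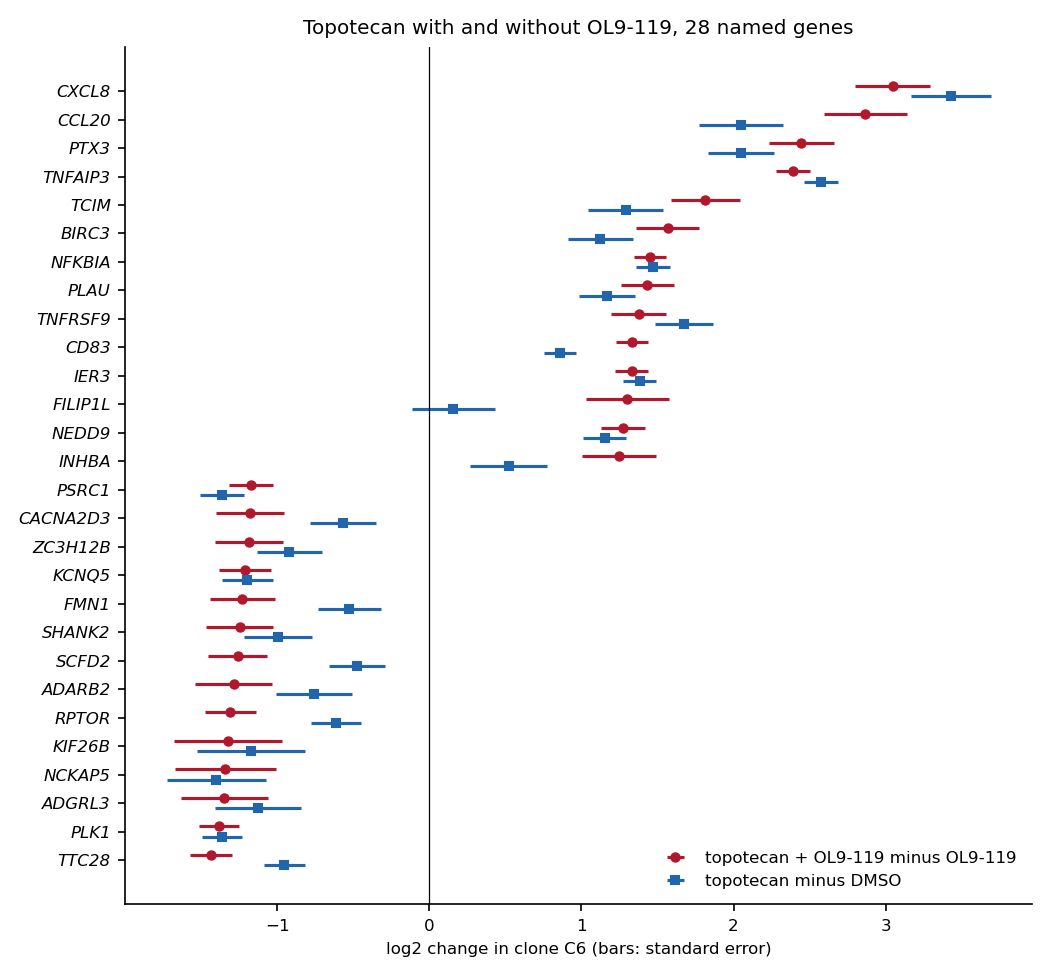
Log2 change of the 14 highest and 14 lowest genes by the naming rule in C6, for the combination minus OL9-119 (circles) and for topotecan minus DMSO (squares), with standard errors as bars. The 28 genes were chosen on the circles. All 28 had the same sign in both, and 22 were called for topotecan alone.

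Clones F7 and G6 received the same treatments, and the change was compared between C6 and their mean. In F7 280 genes were called (1.47%, with 0.132% higher and 1.34% lower, against 6.98% at an unadjusted p under 0.05). In G6 1238 were called (6.52%, with 1.72% higher and 4.8% lower, and 16.1% unadjusted). Of the 962 genes of C6, 202 were called in F7 and 534 in G6 with the same direction. Genes over 200 kb had medians of -0.31 in F7, with 203 of 1176 lower, and -0.44 in G6, with 489 lower. For the difference between C6 and the other 2 clones 12 genes passed (0.0632%), 9 with a higher (0.0474%) and 3 with a lower (0.0158%) value in C6, against 1457 (7.67%) at an unadjusted p under 0.05. TNFAIP3 changed by 2.39 ± 0.11 in C6, by 0.45 ± 0.10 in F7 and by 2.08 ± 0.11 in G6, a difference of 1.13 ± 0.13 (adjusted p = 1.22e-07, edgeR). CXCL8 changed by 3.05 ± 0.25 in C6, by 0.54 ± 0.22 in F7 and by 2.69 ± 0.24 in G6 (difference 1.43 ± 0.28, adjusted p = 0.0132, edgeR). In both genes G6 lay much closer to C6 than F7 did. PTX3, ATF3, GADD45A, MMP10, SDC4, SAT1 and ENSG00000255556 were the other genes with a higher value in C6 than in the mean of F7 and G6. SDC4 was not higher than in G6, with 0.77 in C6, -0.08 in F7 and 0.79 in G6. PLK1 changed by -1.38 ± 0.13 in C6, with -0.44 ± 0.13 in F7 and -0.71 ± 0.13 in G6 (difference -0.81 ± 0.16, adjusted p = 0.0116, edgeR), and AURKA and KIF20A were the other lower ones.

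These differences depended on the libraries. The call of TNFAIP3 held with each C6 combination and OL9-119 library left out in turn. Single F7 and G6 libraries were not left out. With C6 held to its libraries of lower detection and all F7 and G6 libraries kept, the difference of TNFAIP3 was 1.145 (adjusted p = 6.57e-05, edgeR). With C6 held to those of higher detection, where 1 combination library was left, it was 1.04. These fits do not compare the clones within 1 class. Leaving out single C6 libraries raised the adjusted p of 6 genes past 0.05. The highest values were 0.119 for CXCL8 and 0.14 for ENSG00000255556 without OL9-119 replicate 3, 0.106 for PLK1 and 0.0898 for SDC4 without combination replicate 2, and 0.412 for MMP10 and 0.116 for SAT1 without combination replicate 4 (edgeR). F7 held no library of lower detection in any group, and G6 held 1 of 4 in each of these 2 groups, so the class was spread unevenly over the clones. With the class term 22 genes passed, the 12 among them.

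**Figure D5:**
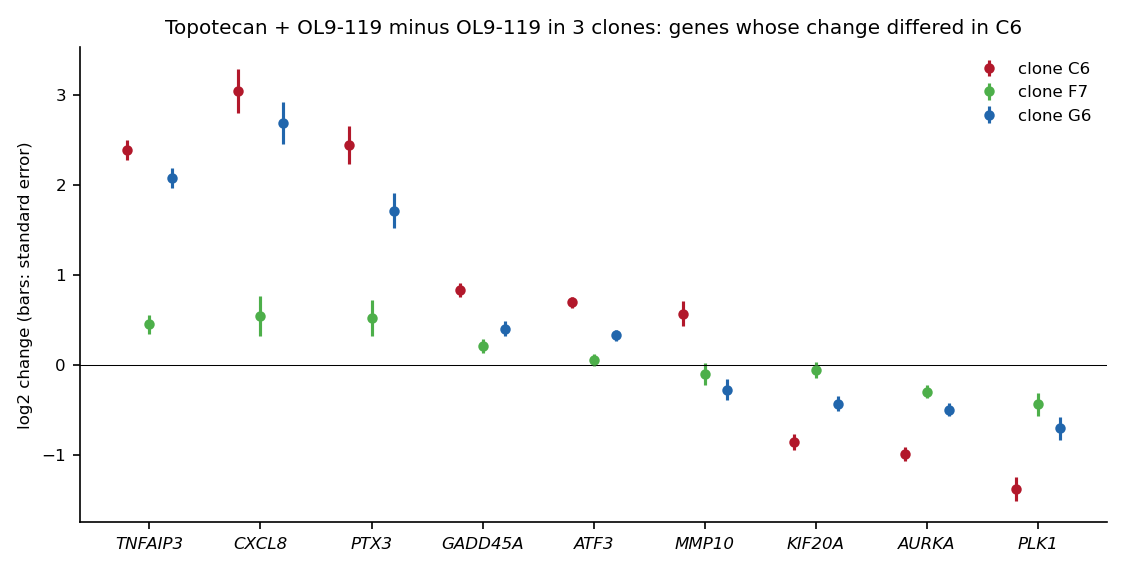
Log2 change of the combination minus OL9-119 in clones C6, F7 and G6, with standard errors as bars, for 9 of the 12 genes whose change differed between C6 and the mean of the other clones. TNFAIP3 stood at 2.39 in C6, 0.45 in F7 and 2.08 in G6.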

How the data were processed

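Poly(A) RNA of TDP1-knockout HEK293A clones was sequenced from directional libraries. The authors deposited counts, whole numbers of reads per gene and library that were not normalised. Per the submitters' processing notes, FastQC 0.11.9, STAR 2.7.8, Picard 2.26.6 and hg38 were used. Which tool counted the reads, on which annotation and strand, is not given in the sources used here. Of 58395 gene identifiers, 58275 were found in GENCODE 29, which gave coordinates and spans, and 57754 had a current symbol. Groups came from the labels.

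Genes past filterByExpr (18985) were tested with edgeR 4.0.16 in R 4.3.3: a 2-sided quasi-likelihood test, TMM scaling, 1 mean per clone and treatment, all 60 libraries, 45 residual degrees of freedom and Benjamini-Hochberg adjustment over all genes. All 60 libraries were used so that groups of 4 share 1 estimate of spread. Called means an adjusted p under 0.05. Errors (±) are SE for log2 changes and SD for levels. CPM use TMM library sizes, and log2 values use a prior count of 2. Alternatives were other scalings, no filter, DESeq2 1.42.0, fewer libraries, a replicate block and left-out libraries. The class of detection was added after the data were seen. Promoter windows and motif counts came from RefSeq on GRCh38.p14.

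Named genes were TDP1 and TOP1, the 14 highest and 14 lowest called genes with a mean of at least 2 log2 CPM and a standard symbol, up to 4 called members of each list by p, and up to 5 genes each way of each difference between effects. Other genes named were chosen after their values were seen. The members, lists and tests were chosen with earlier results of these data known. A result on 1 gene is not reported here.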

Additional observations from a re-analysis of the deposited data

Results flagged for a closer look

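In 4 of 168 groups of 4 libraries examined, 1 library stood apart from the other 3 by Dixon's test at the 95% level, and chance gives about 5% of groups. KCNQ5 was highest in combination replicate 2, at 15.2 CPM. PRKDC was lowest in combination replicate 3, at 574 CPM, and IRF1 and HLA-E were highest there, at 38.9 and 232 CPM. Replicate 3 was the only combination library of the higher detection class.

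A gene whose change differed between the 2 topotecan effects in C6 was ATF3, with a difference of -0.69 on the log2 scale (adjusted p = 3.85e-06, edgeR) and a smaller rise beside OL9-119 than beside DMSO. Of the 12 genes whose change differed between C6 and the mean of F7 and G6, those of the naming rule for this difference were CXCL8 by 1.43, PTX3 by 1.33, TNFAIP3 by 1.13, MMP10 by 0.76, GADD45A by 0.53, AURKA by -0.59, KIF20A by -0.61 and PLK1 by -0.81 on the log2 scale. Their adjusted p in the same order were 0.0132, 0.00651, 1.22e-07, 0.0374, 0.00439, 0.000384, 0.00211 and 0.0116 (edgeR). The other 4 of the 12 were ENSG00000255556 by 1.85, ATF3 by 0.51, SAT1 by 0.43 and SDC4 by 0.42 (adjusted p = 0.0244, 0.00013, 0.0273 and 0.0132, edgeR). The libraries without which CXCL8, MMP10 and PLK1 were not called are given with those genes above.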

How the results depend on the processing

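The 962 genes called for the combination minus OL9-119 became 84 in a fit of the 8 libraries, 321 in the 20 C6 libraries, 608 without number 2 of both groups, 83 within the higher detection class, 1466 with the detection class term and 1845 with a replicate block. Without single libraries the count was 699 to 1524, the highest without combination replicate 3. In every comparison the libraries left out singly were the 8 combination and OL9-119 libraries of C6. The detection classes restricted only C6 libraries, and all F7 and G6 libraries stayed in. Same-numbered libraries did not deviate together (correlations 0.03, -0.11, 0.39 and 0.07), so the numbers are not taken as pairs. Against topotecan alone the 1 gene called became 100 with no filter on low counts, 10 with DESeq2, 0 in the groups compared alone, 8 with the replicate block, 2 with the class term, 117 within the lower and 0 within the higher detection class, and 1 to 8 without single libraries. Against F7 and G6 the 12 genes became 29 with no filter, 29 with DESeq2, 7 in the groups compared alone, 22 with the replicate block, 22 with the class term, 23 and 2 within the lower and higher detection class, 7 without number 2, and 8 to 36 without single libraries. The rank correlation with span was -0.23 to 0.0077 without single libraries, and turned positive, at 0.0077, without combination replicate 3. The TOP1 change was -0.18 to 0.039, positive without OL9-119 replicate 1 (0.039, adjusted p = 0.883) and without combination replicate 3 (0.01, adjusted p = 0.982, edgeR). The cause of these shifts was not tested, apart from the fewer samples that the smaller fits hold. Of 79 genes named by rule, 51 lost their call in the 8 libraries alone, 25 in the 20 C6 libraries, 14 with no filter, 16 without number 2, 52 within the higher and 20 within the lower detection class, and 4 to 14 without single libraries. All 79 kept direction and side of the threshold with the class term, the replicate block and upper-quartile scaling. DESeq2 changed 2 calls and DESeq2 size factors 3. Genes under about 1 CPM rest on few counts.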
